A study of Mus musculus with 6 samples.

Results

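The genes described here are the readers of methylated DNA Mbd1, Mbd2, Mbd3, Mbd4 and Zbtb33, the chromatin remodeller gene Hells, and 4 genes linked to the removal of DNA methylation, Tet1, Gadd45a, Gadd45b and Gadd45g. They were taken as every probe set whose platform gene symbol was one of these 10, which gave 18 of the 22626 probe sets tested, 11 for the readers with Hells and 7 for the demethylation-linked genes. RNA was measured on 6 one-colour arrays of mouse CD4+CD25+ cells separated with magnets to obtain regulatory T cells (Treg), the T cell lineage that depends on the transcription factor Foxp3. The knockout group (3 arrays) had the genotype fl-DNMT1/Foxp3cre, a floxed gene of the maintenance methyltransferase Dnmt1 with Cre recombinase expressed where Foxp3 is, and the control group (3 arrays) was wild type, all labelled C57BL6. The labels give no age or sex and do not list floxed or Cre-bearing controls. The design text calls the samples independent without naming animals, so the p-values measure the spread between these samples, which may be technical.

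Methylated CpG dinucleotides are bound by proteins with a methyl-CpG-binding domain (the Mbd family) or with zinc fingers such as Kaiso, the product of Zbtb33, which bring co-repressors to the DNA. Removal of the mark can be passive, when Dnmt1 does not copy it after replication, or active, through oxidation of methylcytosine by Tet enzymes and base excision repair. Gadd45 proteins are small stress-induced adaptors that bind the kinase Map3k4, Pcna and the cell cycle inhibitor p21, and they have been linked to repair-coupled demethylation. In Treg the first intron of Foxp3 holds an element whose loss of methylation stabilises the expression of that gene, and Mbd2 has been reported to bind there in mouse cells.

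All values are log2 expression made by the authors with RMA (robust multi-array average), with array medians between 5.70 and 5.77. Differences are knockout minus wild type on this scale, so that 1 is a doubling, and RMA understates differences of dim probe sets. They were tested with limma, and a probe set was called when its p-value, adjusted by the Benjamini-Hochberg method over all 22626 probe sets, was under 0.05. The knockout arrays differed from the wild type arrays in their cell markers. Of 12 neutrophil probe sets (11 genes) 7 were called higher, and the mean of the 11 genes was 8.37, 10.46 and 9.05 on knockout arrays 1, 2 and 3, against 6.09 to 6.55 on the wild type arrays. All 11 probe sets of 8 Treg and T cell markers had negative differences, 2 of them called, in Ikzf2 and Il2ra. The Treg marker Foxp3 had 9.28, 8.82 and 8.43 on the knockout arrays, against 9.47 to 9.51 in wild type (difference -0.66, limma adjusted p = 0.151). The limma adjusted p of Foxp3 was 0.0204 without knockout replicate 1, the knockout array nearest wild type. With any other 1 array left out it was 0.231 to 0.355. Of 10 monocyte and macrophage probe sets 1 was called higher, of Cd14, and all 10 differences were positive. Of 8 CD8 and NK probe sets 1 was called higher, of Ncr1, with 4 differences positive and 4 negative, the negative ones in Gzma, Cd8b1 and both probe sets of Cd8a (-0.66 to -0.36). In the other lists 0 of 6 B cell and 0 of 6 erythroid probe sets were called. At unadjusted p under 0.05 there were 0 and 3, where 16.6% of all probe sets had such a p. Of the B cell differences 5 were negative and 1 positive (median -0.35). Of the erythroid differences 5 were positive and 1 negative (median 0.73). The mean of the 4 erythroid genes was 4.80, 4.56 and 5.54 on knockout arrays 1, 2 and 3, against 4.06 to 4.45 in wild type. In such mixed RNA, fewer cells of a type and less RNA per cell cannot be told apart. The targeted gene Dnmt1 had knockout values of 8.67, 8.89 and 9.34 on its brighter probe set, against 9.43 to 9.56 in wild type (difference -0.53, limma adjusted p = 0.162). The limma adjusted p of this probe set was 0.0457 without knockout replicate 3, the knockout array nearest wild type. With any other 1 array left out it was 0.216 to 0.376. The sources used here do not say whether the Dnmt1 probe sets lie in the deleted part.

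Of the 18 probe sets, 1 was called, that of Gadd45g, which was higher in the knockout, and 17 were not. Over all probe sets 1.68% were called, 1.19% as higher and 0.486% as lower. At an unadjusted p under 0.05 there were 5 of the 18, where 16.6% of all probe sets had such a p. Of the 11 probe sets of readers and Hells, 5 had a positive and 6 a negative difference, with a median of -0.0094 and a range of -0.17 to 0.22. Of the 7 demethylation-linked probe sets, 2 had a positive and 5 a negative difference, with a median of -0.23 and a range of -0.40 to 0.87. The median over all probe sets was -0.019. With the brightest probe set alone for each gene, the medians were -0.036 for the 6 genes of readers and Hells and -0.038 for the 4 demethylation-linked genes, beside -0.014 over all genes, so the lower median of the demethylation-linked probe sets rested on the additional probe sets of Gadd45b and Tet1. The signs of Hells, Gadd45a and 1 Mbd1 probe set turned under some scalings. The median absolute difference was 0.084 for the readers and 0.24 for the demethylation-linked genes, beside 0.11 for all probe sets. No test was made between the groups of genes, since several probe sets share a gene.

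**Figure D1:**
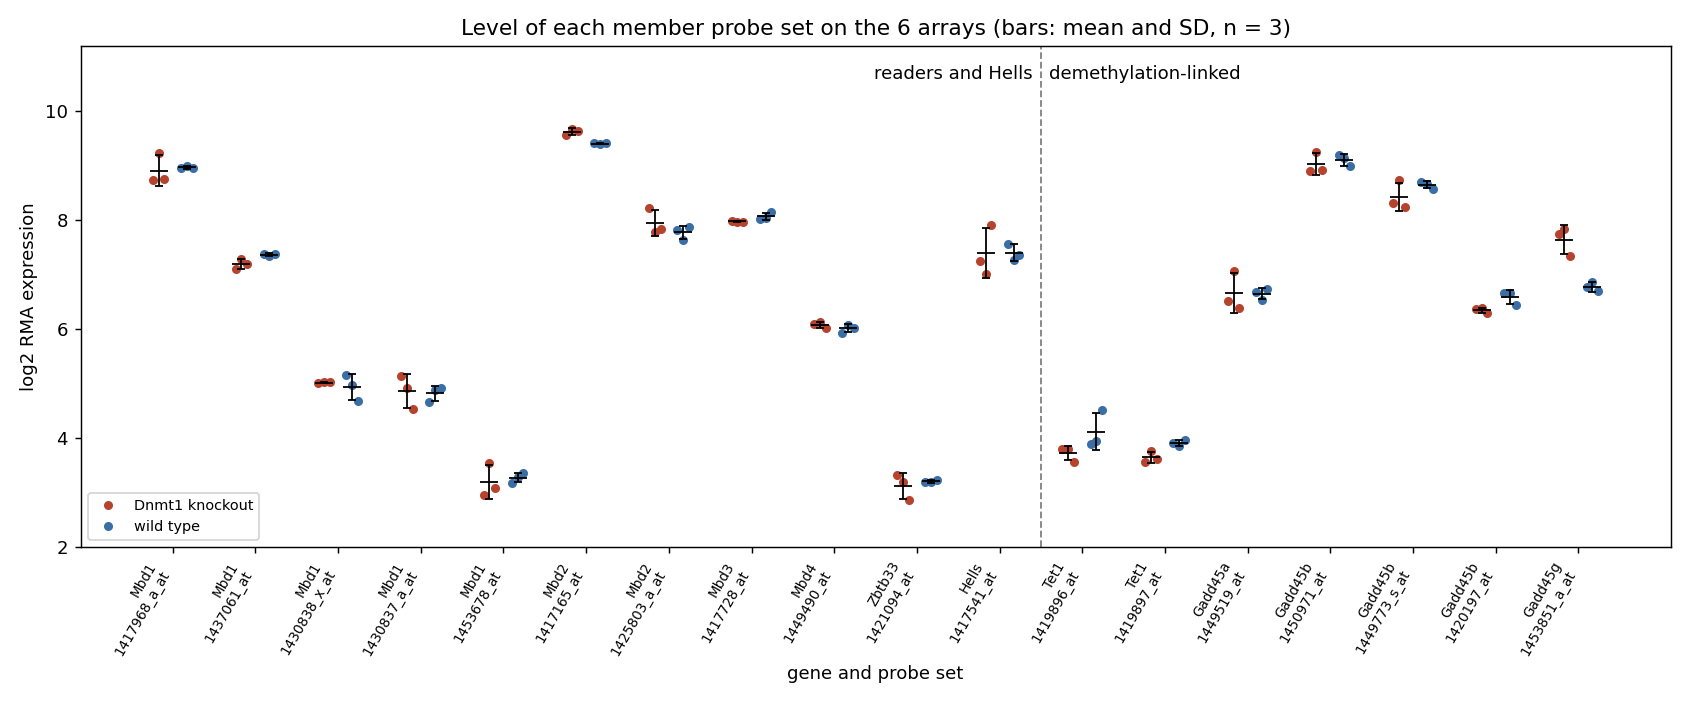
Log2 RMA expression (y axis) of the 18 probe sets (x axis, by gene and probe set) on 3 knockout arrays (red, left of each pair) and 3 wild type arrays (blue), with bars for the mean and SD. The Gadd45g probe set at the right end shows the knockout arrays at 7.34 to 7.83, all above the wild type arrays at 6.69 to 6.87.

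Gadd45g rose in the knockout. It encodes the Gadd45 family member that, with Gadd45b, is known in mouse T helper cells for p38 kinase signalling and interferon gamma production. Its single probe set (1453851_a_at) had 7.75, 7.83 and 7.34 on the knockout arrays, against 6.76, 6.87 and 6.69 on the wild type arrays. Every knockout array lay above every wild type array, as in 9.79% of all probe sets, and knockout replicate 3 was the lowest of its group. The means were 7.64 ± 0.26 in the knockout and 6.77 ± 0.09 in wild type (SD, n = 3 each), a difference of 0.87 (SE 0.14, 95% interval 0.55 to 1.18, 1.82-fold, limma adjusted p = 0.0270). The difference stayed between 0.77 and 1.02 with any 1 array left out, but the call did not. The adjusted p was 0.0538 without knockout replicate 2 and 0.115, 0.101 and 0.135 without wild type replicates 1, 2 and 3. Knockout replicate 2, where Gadd45g was highest, also had the highest mean of the neutrophil markers. Knockout replicate 1 had nearly the same Gadd45g level as replicate 2 and the lowest neutrophil mean of its group. That mean, 8.37, was still above the wild type arrays at 6.09 to 6.55, so all 3 knockout arrays were higher in both. The part of other cell types in the Gadd45g level was not tested.

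The windows around the transcription starts of the Gadd45 genes are given to show their CpG dinucleotides, the sites at which Dnmt1 maintains methylation. They run 5′ to 3′ along the gene's strand, from 250 bases before to 50 bases after the start, are taken from RefSeq on GRCm38.p6, and have each CG in capitals. Gadd45g lies at chr13:51846425-51846724 on the plus strand, Gadd45a at chr6:67037358-67037657 on the minus strand and Gadd45b at chr10:80929841-80930140 on the plus strand.
Gadd45g: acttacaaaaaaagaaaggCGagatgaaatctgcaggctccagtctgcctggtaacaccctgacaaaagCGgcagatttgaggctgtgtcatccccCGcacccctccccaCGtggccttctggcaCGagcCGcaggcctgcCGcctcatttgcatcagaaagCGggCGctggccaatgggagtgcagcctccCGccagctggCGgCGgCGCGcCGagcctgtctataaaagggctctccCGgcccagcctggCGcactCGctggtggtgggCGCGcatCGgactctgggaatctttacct
Gadd45a: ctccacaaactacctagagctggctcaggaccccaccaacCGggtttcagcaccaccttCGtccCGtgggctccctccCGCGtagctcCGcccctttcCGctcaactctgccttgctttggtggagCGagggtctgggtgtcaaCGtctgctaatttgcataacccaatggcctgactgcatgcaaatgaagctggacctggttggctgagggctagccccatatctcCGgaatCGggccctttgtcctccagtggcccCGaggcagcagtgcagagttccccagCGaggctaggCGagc
Gadd45b: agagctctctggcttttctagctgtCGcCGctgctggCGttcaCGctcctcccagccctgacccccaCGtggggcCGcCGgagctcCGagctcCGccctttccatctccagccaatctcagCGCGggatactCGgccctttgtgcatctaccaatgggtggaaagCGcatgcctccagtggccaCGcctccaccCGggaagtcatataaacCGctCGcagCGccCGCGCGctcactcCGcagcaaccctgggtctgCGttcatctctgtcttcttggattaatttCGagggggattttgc
The Gadd45g window held 21 CG, that of Gadd45a 14 and that of Gadd45b 24. The median over 32851 windows of this kind was 7, and 75.2%, 63.7% and 80% of them held fewer CG than the windows of Gadd45g, Gadd45a and Gadd45b. The letters TATAA, searched on both strands, occurred 1 time in the windows of Gadd45g and Gadd45b and 0 times in that of Gadd45a, and 24.9% of all windows held them. Methylation was not measured here, so these counts describe the sequence only, and a link between them and the levels was not tested.

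The paralogues Gadd45a and Gadd45b did not pass the test. Gadd45a, whose transcription p53 is known to induce, had 6.51, 7.07 and 6.39 on the knockout arrays, against 6.69, 6.53 and 6.73 in wild type (1449519_at). The knockout values lay on both sides of the wild type values, with replicate 2 above and replicates 1 and 3 below all of them. The difference was 0.0077 (95% interval -0.39 to 0.41, adjusted p = 0.988), and it was -0.20 without knockout replicate 2 and -0.021 after centring each array on its median. The brightest Gadd45b probe set (1450971_at) had 8.90, 9.26 and 8.92 on the knockout arrays, against 9.21, 9.14 and 8.99 in wild type. Its groups overlapped, and the difference was -0.085 (95% interval -0.36 to 0.19, adjusted p = 0.768). The other Gadd45b probe sets also had negative differences, -0.23 for 1449773_s_at (8.31, 8.73 and 8.24 in the knockout, against 8.71, 8.67 and 8.58 in wild type) and -0.24 for 1420197_at. On the dimmest, 1420197_at, the knockout arrays at 6.29 to 6.38 all lay below the wild type arrays at 6.44 to 6.66 (adjusted p = 0.246). Gadd45a and all 3 Gadd45b probe sets were highest, within the knockout, on replicate 2, the array with the highest neutrophil mean. The part of neutrophil RNA in these values was not tested.

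The change of Gadd45g was set against that of its paralogues within each array, by the brightest probe sets. The knockout minus wild type difference was larger by 0.86 (SE 0.18) in Gadd45g than in Gadd45a and by 0.95 (SE 0.13) than in Gadd45b. The arrays of the groups did not overlap in either contrast. Gadd45g was the called member and its groups did not overlap by itself, so this separation is no further support. For Gadd45b against Gadd45a the difference between their knockout minus wild type differences was -0.092 (SE 0.14). Two-sided exact permutation tests over the arrays gave p = 0.1, 0.1 and 0.6 for the 3 pairs (0.15, 0.15 and 0.6 after Benjamini-Hochberg adjustment), and 0.1 is the smallest p that 3 against 3 arrays allow. No difference between the paralogues could therefore pass a threshold of 0.05 by this test.

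**Figure D2:**
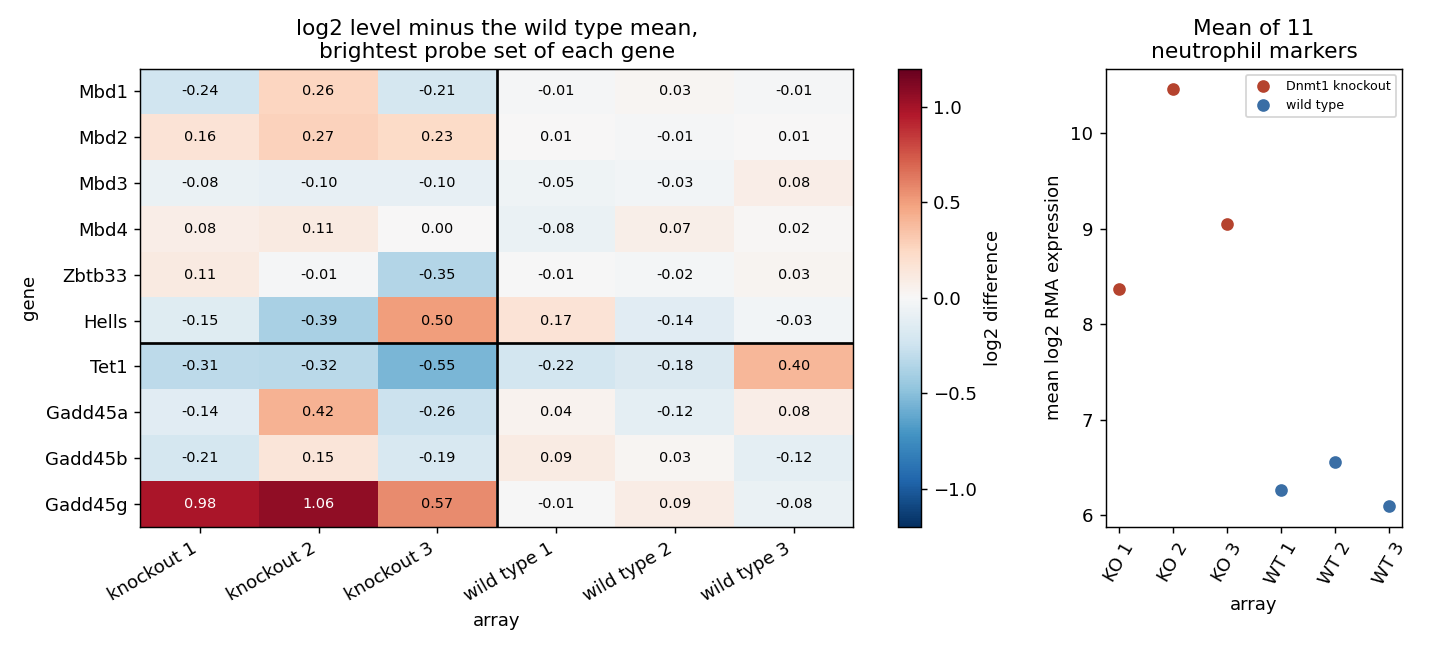
Left, log2 level minus the wild type mean (colour and number) for the brightest probe set of each gene (rows) on the 3 knockout and 3 wild type arrays (columns). Right, the mean log2 level of 11 neutrophil markers (y axis) on the same arrays (x axis), which is highest on knockout replicate 2 at 10.46. Gadd45g is above the wild type mean on all 3 knockout arrays, while Gadd45a, Gadd45b and Mbd1 are above it in knockout replicate 2 and below it in the other knockout arrays.

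Tet1, a dioxygenase that oxidises methylcytosine, was measured by a pair of dim probe sets, both well below the median level of 5.74 over all probe sets. The probe set 1419897_at had 3.55, 3.76 and 3.61 on the knockout arrays, against 3.91, 3.85 and 3.96 in wild type. The other, 1419896_at, had 3.80, 3.80 and 3.57 in the knockout, against 3.89, 3.94 and 4.52 in wild type. In both, every knockout array lay below every wild type array, and in 1419896_at wild type replicate 3 stood above the other arrays. The differences were -0.27 (95% interval -0.47 to -0.066, adjusted p = 0.185) and -0.40 (95% interval -0.79 to -0.00090, adjusted p = 0.300), and without wild type replicate 3 the second was -0.20. Neither passed the test, and at this level RMA values compress any difference. Groups that did not overlap with the knockout lower were found in 3 of the 7 demethylation-linked probe sets and in 2 of the 11 of readers and Hells, where 13.6% of all probe sets had them.

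Among the readers, Mbd2 had the lowest p. Its protein binds methylated CpG and recruits the NuRD complex, which remodels nucleosomes and deacetylates histones. The brighter Mbd2 probe set (1417165_at) had 9.57, 9.68 and 9.64 on the knockout arrays, against 9.41, 9.39 and 9.41 in wild type. The knockout arrays all lay above the wild type arrays here too. The difference was 0.22 (SE 0.074, 95% interval 0.051 to 0.39, 1.17-fold), which did not pass over all probe sets (limma adjusted p = 0.195) and stayed between 0.20 and 0.25 with any array left out. The dimmer probe set (1425803_a_at) had 8.22, 7.78 and 7.84 in the knockout, against 7.83, 7.64 and 7.87 in wild type. Its groups overlapped, and its difference was 0.17 (95% interval -0.14 to 0.47) and 0.028 without knockout replicate 1.

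Mbd1, whose protein binds methylated CpG through its own domain and also carries CXXC zinc fingers, was measured by 5 probe sets that differed in sign. The brightest (1417968_a_at) had 8.733, 9.231 and 8.758 on the knockout arrays, against 8.957, 8.998 and 8.955 in wild type. The wild type arrays lay within 0.05 of each other, and the knockout arrays fell on both sides of them. The difference was -0.062 (95% interval -0.38 to 0.26, adjusted p = 0.859), -0.22 without knockout replicate 2 and 0.025 without knockout replicate 1. The probe set 1437061_at was lower on each knockout array, 7.10, 7.28 and 7.20, than in wild type, 7.39, 7.34 and 7.37, by -0.17 (adjusted p = 0.329). The other 3, all below the median level, had differences of 0.084 (1430838_x_at), 0.040 (1430837_a_at, with -0.015 after quantile normalisation) and -0.080 (1453678_at), and their groups overlapped. A probe set ending in _x_at holds probes that can bind other transcripts. In 4 of the 5, knockout replicate 2 had the highest and replicate 1 the lowest value of their group, the order of the neutrophil mean. Over all 18 member probe sets 7 had this order, as had 18.2% of all probe sets, and 12 were highest, within the knockout, on replicate 2, as were 32.7% of all. The part of neutrophil RNA in these orders was not tested.

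Mbd3 is a NuRD subunit that in mammals hardly binds methylated DNA, and Mbd4 is a glycosylase that removes thymine left by deamination of methylcytosine. Mbd3 had 7.99, 7.97 and 7.97 in the knockout, against 8.02, 8.04 and 8.15 in wild type, a difference of -0.090 (95% interval -0.27 to 0.086, adjusted p = 0.601). Its knockout arrays lay just below the wild type arrays. Mbd4 had 6.10, 6.12 and 6.01 in the knockout, against 5.93, 6.08 and 6.03 in wild type, a difference of 0.064 (95% interval -0.12 to 0.25, adjusted p = 0.737). Its groups overlapped. Zbtb33 was near the floor of the scale, with 3.31, 3.19 and 2.86 in the knockout, against 3.20, 3.19 and 3.23 in wild type (difference -0.084, adjusted p = 0.775). The intervals of Mbd3 and Mbd4 leave room for differences of up to 0.27 on the log2 scale, and at the level of Zbtb33 a change of the transcript may not be seen.

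Hells, also called Lsh, is a remodeller of the SNF2 family that is needed for normal DNA methylation in mice and is expressed in dividing cells. It had 7.25, 7.01 and 7.90 on the knockout arrays, against 7.57, 7.26 and 7.37 in wild type. No knockout value lay inside the wild type range, with replicates 1 and 2 below and replicate 3 above all wild type arrays, and its SD of 0.46 in the knockout was the largest among the 18 probe sets in either group. The difference of means was -0.0094 (95% interval -0.51 to 0.49, adjusted p = 0.989), and it was -0.27 without knockout replicate 3 and 0.18 without knockout replicate 2. It was 0.0039 after quantile normalisation and 0.043 after cyclic loess. A list of 12 cell cycle partners of Gadd45 and replication genes includes Cdkn1a, the gene of the inhibitor p21. Its mean was 9.16, 9.08 and 9.71 on knockout arrays 1, 2 and 3, against 9.08 to 9.23 in wild type. Knockout replicate 3 was highest and replicate 2 lowest of their group in both Hells and this mean, and also in the erythroid mean. On knockout replicate 1 the mean of the list lay inside the wild type range. Hells on that array, at 7.254, lay just below the lowest wild type array, at 7.265. Dnmt1 on the same arrays was also highest, within the knockout, on replicate 3. The part of dividing cells or of erythroid RNA in the Hells values was not tested.

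**Figure D3:**
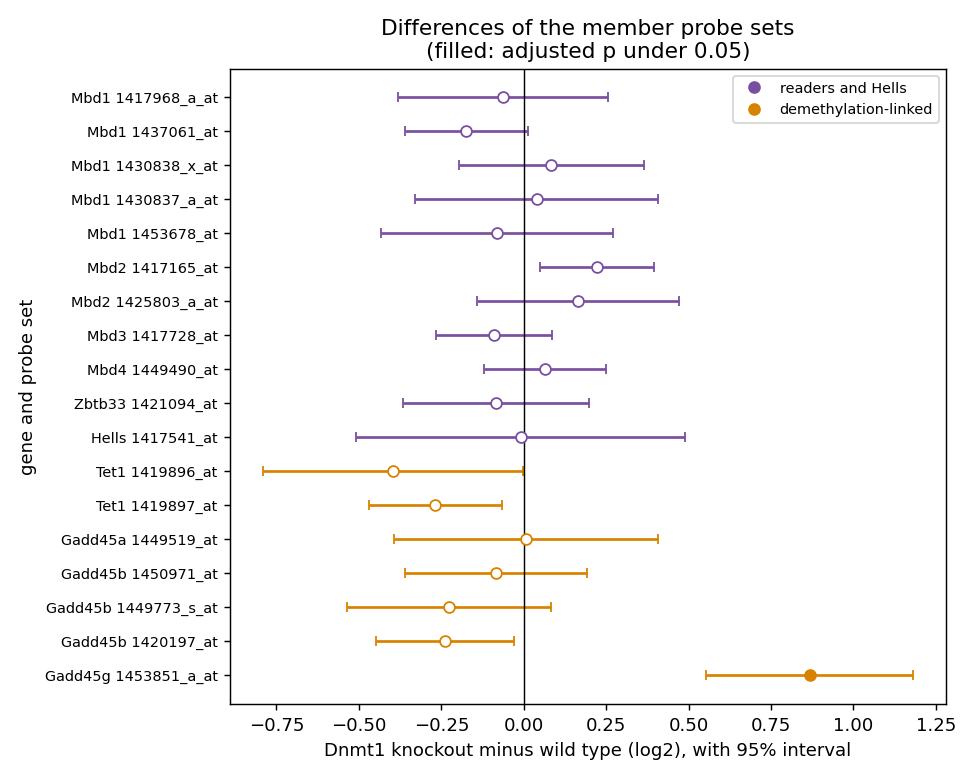
Knockout minus wild type difference on the log2 scale (x axis, with 95% interval from limma) of each probe set (y axis), readers and Hells in purple and demethylation-linked genes in orange. The filled point, Gadd45g at 0.87, is the probe set that passed the test, and the interval of Hells, from -0.51 to 0.49, is the widest.

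**Figure D4:**
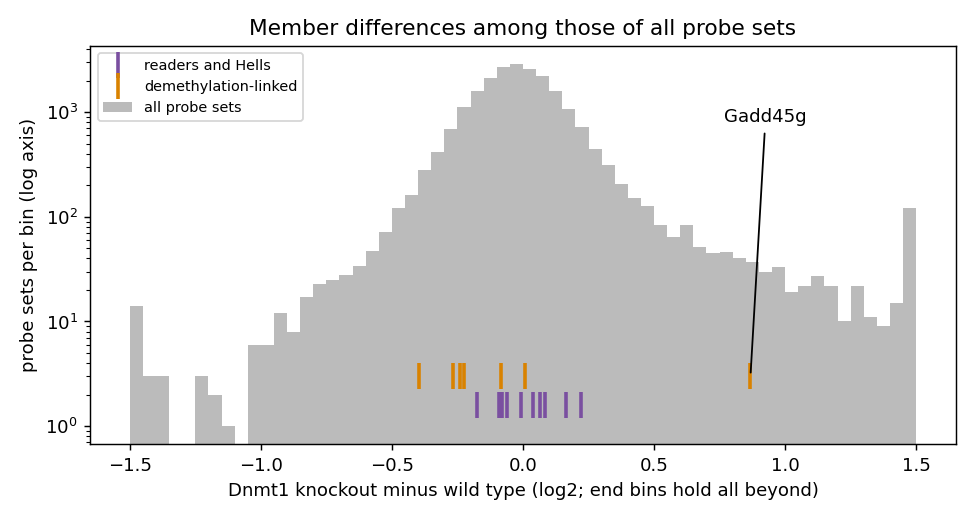
Number of probe sets (y axis, log scale) by knockout minus wild type difference (x axis, log2, in bins of 0.05) for all 22626 probe sets, with the members as ticks. The readers lie between -0.17 and 0.22 and Gadd45g at 0.87 lies to the right of the other members.

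The partners of these genes were read from lists. Of 18 probe sets for 10 measured genes of methylation writers and other readers, 1 was called lower and 0 higher, with a median difference of -0.18. They include both probe sets of the targeted gene Dnmt1 (-0.53 and -0.72). Of the 18, 13 had a negative difference, as had 12406 of all 22626 probe sets. An unadjusted p under 0.05 was found in 8 (16.6% of all probe sets), and 10 had all knockout arrays below the wild type arrays (13.6%). The 8 were of Dnmt1, Dnmt3a, Dnmt3b and Mbd6 only, and most were of Dnmt1 and Dnmt3a. The 10 were these with 1 probe set each of Ctcf and Trim28, so the counts rest largely on repeated probe sets of Dnmt1 and Dnmt3a. The called probe set was of Dnmt3a, a de novo methyltransferase (1460324_at), with 6.08, 5.98 and 6.16 in the knockout, against 7.10, 6.84 and 6.81 in wild type (difference -0.84, limma adjusted p = 0.0160). The other 4 Dnmt3a probe sets were not called. The brightest had a difference of -0.40 (adjusted p = 0.0889), and the others had -0.39 (1423065_at), -0.21 (1423066_at) and 0.0071 (1423064_at, with overlapping groups). Of 19 NuRD probe sets (10 genes), 0 were called and 2 had an unadjusted p under 0.05 (16.6% of all probe sets). A negative difference was found in 16 of the 19 (12406 of all 22626), with a median of -0.11, and several of these probe sets share a gene. The lowest p was in the remodeller Chd4, with 8.73, 8.83 and 8.99 in the knockout, against 9.33, 9.18 and 9.13 in wild type (1436343_at, difference -0.37, adjusted p = 0.133). The list of base excision repair and oxidation had 0 of 22 called (6 at unadjusted p under 0.05), with a median of -0.044 and the lowest p in Apobec2 (difference 0.71, adjusted p = 0.129). The list of MAP kinases linked to Gadd45, which also holds the transcription factor genes Atf2 and Jun, had 0 of 23 called. Of these 23 probe sets 5 had an unadjusted p under 0.05, and 9 differences were positive and 14 negative, with a median of -0.035. Both Jun probe sets were higher on every knockout array, by 0.35 and 0.38 (limma adjusted p = 0.179 and 0.172). The lowest p was in Mapk8, which encodes the kinase JNK1 (1437045_at, difference -0.34, limma adjusted p = 0.147). The other Mapk8 probe sets had overlapping groups. The brightest, 1420932_at, had a difference of -0.20 (limma adjusted p = 0.530), and 1420931_at had -0.0039 (limma adjusted p = 0.986).

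Of 26 probe sets for 12 cell cycle partners of Gadd45 and replication genes, 1 was called higher and 0 lower, with a median difference of 0.058 and 3 at unadjusted p under 0.05. It was of Cdkn1a, which encodes p21, a cell cycle inhibitor that binds Gadd45 proteins (1421679_a_at). It had 6.50, 6.88 and 6.82 on the knockout arrays, against 5.78, 5.98 and 5.82 in wild type, so that the groups did not overlap. The difference was 0.87 (SE 0.12, 1.83-fold, limma adjusted p = 0.0192), with adjusted p of 0.0601 to 0.104 without knockout replicate 3 or without any 1 of the wild type arrays. The brighter Cdkn1a probe set (1424638_at) had a difference of 0.77 and was not called (adjusted p = 0.148). Leaving out any 1 wild type array ended the call of Dnmt3a (adjusted p 0.0570 to 0.0642).

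The genes with the most similar values over the 6 arrays were sought for Gadd45g and for Mbd2, among 10361 probe sets of other genes at or above the median level, by the root mean square difference after centring each probe set on its own mean. For Gadd45g they were LOC664787 (distance 0.080 on the log2 scale), Mllt6 (0.11) and Litaf (0.11). These genes were picked by their closeness, so any order of arrays that they share with Gadd45g follows from the choice. Mllt6 had 6.91, 7.09 and 6.70 on the knockout arrays, against 5.95, 6.09 and 6.16 in wild type. Litaf had 7.21, 7.49 and 7.02 in the knockout, against 6.25, 6.56 and 6.45 in wild type. For Mbd2 they were Selplg (0.022), Adipor1 (0.031) and Sft2d2 (0.032). Selplg, which encodes the selectin ligand PSGL-1, had 11.74, 11.89 and 11.80 in the knockout, against 11.57, 11.53 and 11.59 in wild type, and its difference of 0.25 was not called either (adjusted p = 0.170).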

How the data were processed

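Expression was measured on 6 one-colour arrays, 3 of Dnmt1 knockout and 3 of wild type cells, grouped by the genotype labels. The deposited values are log2 expression per probe set that the authors made using RMA, as the submitters' processing notes name it. The sources used here do not give its version or settings. The number of arrays limits the precision. Gene symbols came from the platform's annotation table. Of 22690 probe sets, 64 controls were left out, and of the 22626 others 20380 had 1 gene symbol, 691 several and 1555 none. No probe set with several symbols held a member. No filter was set on dim probe sets, and 14 of the 18 member probe sets lay above the dimmest 40%. The test was limma 3.58.1 (lmFit, then eBayes, in R 4.3.3), two-sided, with Benjamini-Hochberg adjustment over all tested probe sets, after a check on simulated data. The members and lists, and the paralogue contrasts, were chosen with earlier results of these data known. All member probe sets are named. From each list the called genes are named, or else the gene with the lowest p, and some others, such as Jun, to describe a list. The 3 genes with the closest values are named for the member with the lowest p among readers and among demethylation-linked genes. Some listed genes, such as Tet2, Tet3 and Tdg, were not analysed here. RefSeq windows matched 8 of the 10 members, not Mbd1 and Mbd2. Figures used matplotlib 3.10.9.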

Additional observations from a re-analysis of the deposited data

How the results depend on the processing

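Over 15 alternative settings, Gadd45g was the called member in all but 4, those without knockout replicate 2 or without 1 of the wild type arrays, and 0 member probe sets were called lower in any. The members called higher ranged from 0 to 1 with an array left out. Over all probe sets the calls, 270 higher and 110 lower, ranged from 24 to 493 and from 5 to 263 with an array left out, where 5 arrays remain. With the brightest probe set a gene they were 165 and 71, since fewer features are tested. Trend and robust variance gave 182 lower and array weights 169 lower, and the cause was not tested. Replicate numbers are shared between the groups' titles, but deviations of same-numbered arrays correlated at -0.076, 0.11 and -0.010, so that the numbers were not taken to pair them. With the number as a replicate block 166 probe sets were higher and 52 lower, and Gadd45g was called (0.87, limma adjusted p = 0.0324).

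Of 240 recomputed member differences, 217 kept their sign and side of the threshold, 4 lost the Gadd45g call and 19 changed sign, in 7 of the 18 probe sets, none of them called. Hells turned to 0.0039 with quantile normalisation, 0.043 with cyclic loess and 0.087 with array weights. Gadd45a turned to -0.021 with median centring and -0.062 with array weights, and Mbd1 1430837_a_at to -0.015 with quantile normalisation and -0.019 with array weights. With an array left out, the differences ranged from -0.27 to 0.18 for Hells, -0.20 to 0.14 for Gadd45a, -0.22 to 0.025 for Mbd1 1417968_a_at, -0.099 to 0.21 for Mbd1 1430837_a_at, -0.042 to 0.19 for Mbd1 1430838_x_at, -0.26 to 0.039 for Mbd1 1453678_at and -0.18 to 0.047 for Zbtb33. Scaling moved the median difference of all probe sets to between -0.048 and 0.0017. Low signal limits what can be seen for Zbtb33, Tet1 and the dimmest Mbd1 probe sets.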
